A study of Mus musculus with 12 samples.

Results

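The expression of 40 genes that mark mesenchymal cells or build the extracellular matrix outside the collagens was followed in mouse RAW264.7 and CT-26 cells. Members were found by gene name among the probes of the array, and each probe was kept apart because probes of some genes disagreed. All 40 names were on the array, with 63 of its 55681 probes (34844 names), and 15 of the genes had more than 1 probe. There were 4 groups of 3 samples, with 1 one-colour Agilent array each. RAW264.7 is a macrophage-like line of the mouse, and CT-26 is a line from a mouse colon carcinoma. The first group was RAW264.7 cells transfected with an ABHD5 shRNA, a short hairpin RNA that lowers Abhd5, here called knockdown cells. The second was RAW264.7 cells transfected with PLKO, a lentiviral vector backbone, here called control cells. The third was CT-26 cells primed by the ABHD5-KD RAW cells, here called knockdown-primed. The fourth was CT-26 cells primed by what the labels call RAW cells, with genotype control, here called control-primed. Abhd5 encodes a co-activator of the triglyceride lipase ATGL. The design text gives as the question what lies downstream of Abhd5 in macrophages and what it does to cancer cells. The labels do not say how CT-26 cells were primed, whether they were separated from RAW cells before RNA extraction, how many hairpins or clones were used, or whether the 3 samples of a group were separate cultures, so p-values measure only the spread between these samples.

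Epithelial cells that pass to a mesenchymal state lose E-cadherin and gain N-cadherin, vimentin and fibronectin. Transcription factors of the Snail, Twist and Zeb families repress epithelial genes in this switch. Contractile proteins of the actin and tropomyosin filaments accompany it in fibroblasts and myofibroblasts. Around such cells lie matrix glycoproteins and small proteoglycans, and lysyl oxidases and peroxidasin cross-link the collagen and elastin networks. Macrophages share vimentin and osteopontin with mesenchymal cells but are not known as a main source of fibrillar matrix.

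Levels are given as log2 of the processed signal relative to the 75th percentile of the same array, so that 0 is that percentile. A level of 1 probe is not set against that of another probe. A probe entered a comparison if at least 1 of its groups had it well above background on 3 of 3 arrays. It was called at a Benjamini-Hochberg adjusted p below 0.05 in limma over all probes tested. The 75th percentile of the processed signal ranged from 1679 to 3718 over the 12 arrays, and 56.5% to 77.3% of spots were well above background. Control RAW264.7 replicates 1 and 2 lay on a slide of their own, with 56.5% and 57.8%. Control replicate 3 and all 3 knockdown arrays shared slide 2, and all 6 CT-26 arrays were on slide 3. A fit with slide as a block therefore sets the knockdown arrays against control replicate 3 alone. Abhd5 itself was lower in knockdown than in control cells by 1 of its 3 probes at -1.32 ± 0.20 (log2 change ± SE, adjusted p = 0.00402 in limma) and by another at -1.30 ± 0.27 (adjusted p = 0.0157), while the third gave -0.78 ± 0.29 (adjusted p = 0.0759).

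Of 14 macrophage markers, 11 to 14 were well above background on every array, but their summed signal was 57.8 to 75.7 times the 75th percentile in knockdown-primed and 56 to 61.9 times in control-primed CT-26 cells, against 372 to 422 times in knockdown and 339 to 409 times in control RAW264.7 cells. Emr1 and Laptm5 were not well above background on 5 of the 6 CT-26 arrays, and Tyrobp on the 3 knockdown-primed ones. Of 6 fibroblast markers, which include the members Dcn and Lum, 5 or 6 were well above background on each CT-26 array and 2 to 4 on each RAW264.7 array. Their summed signal was 65.7 to 81.3 times the 75th percentile in knockdown-primed and 60.9 to 63.6 times in control-primed CT-26 cells, and at most 0.27 times it in RAW264.7 cells. Of 13 epithelial markers, 7 to 8 were well above background on each knockdown-primed and 9 to 11 on each control-primed CT-26 array. In RAW264.7 cells it was 9 to 11 on each knockdown and 5 to 11 on each control array, so these counts do not set the lines apart. Their summed signal was 5.26 to 7.34 times the 75th percentile in knockdown-primed and 5.84 to 8.56 times in control-primed CT-26 cells, against 1.91 to 1.99 times in knockdown and 2.34 to 3.48 times in control RAW264.7 cells. Cdh1, which encodes E-cadherin, was not well above background on any of the 6 CT-26 arrays, and Epcam was so on 1 of them. In such bulk RNA, fewer cells of a type and less RNA per cell cannot be told apart.

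Mesenchymal genes were carried mainly by CT-26 cells. Of the 63 probes, 50 were well above background on all 3 arrays in knockdown-primed CT-26 cells (34 genes), 53 in control-primed CT-26 cells (36 genes), 41 in knockdown RAW264.7 cells (27 genes) and 31 in control RAW264.7 cells (19 genes). On all 12 arrays it was 31 probes of 19 genes. Over all spots, 69.0% to 73.0% were well above background on knockdown arrays. Control RAW264.7 replicates 1 and 2, on a slide of their own, had 56.5% and 57.8%, and replicate 3 had 72.7%. Control-primed CT-26 arrays had 68.3% to 77.3% and knockdown-primed ones 59.2% to 66.9%. The counts of member probes were not adjusted for these shares. Eln, Lum and Postn, which encode elastin, lumican and periostin, were well above background on all 3 arrays of no group. Between arrays of a group, the median SD over the probes measured there was 0.16 in knockdown and 0.29 in control RAW264.7 cells, and 0.17 in knockdown-primed and 0.14 in control-primed CT-26 cells.

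The control groups of the 2 lines were compared to learn where each member was expressed without the knockdown. Of 53 member probes tested in control-primed CT-26 against control RAW264.7 cells, 36 (27 genes) were higher and 5 (4 genes) lower in CT-26, which is 77.4% called. Over all 38371 probes tested, 66.6% were called, 28.5 percent higher and 38.1 percent lower. The median difference of the member probes was 2.72 on the log2 scale, against -0.29 over all probes. Groups did not overlap for 43 of the 53 (81.1%) and for 73.9% of all probes tested. Of the 53, 22 passed the filter only through CT-26, so that the choice itself favoured higher values there. Among the 31 measured on every array of both groups, 15 were higher and 5 lower in CT-26, 48.4% and 16.1%, against 19.2% and 45.7% of the 29007 probes of all genes so measured. Cell line and slide cannot be told apart in this comparison.

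**Figure D1:**
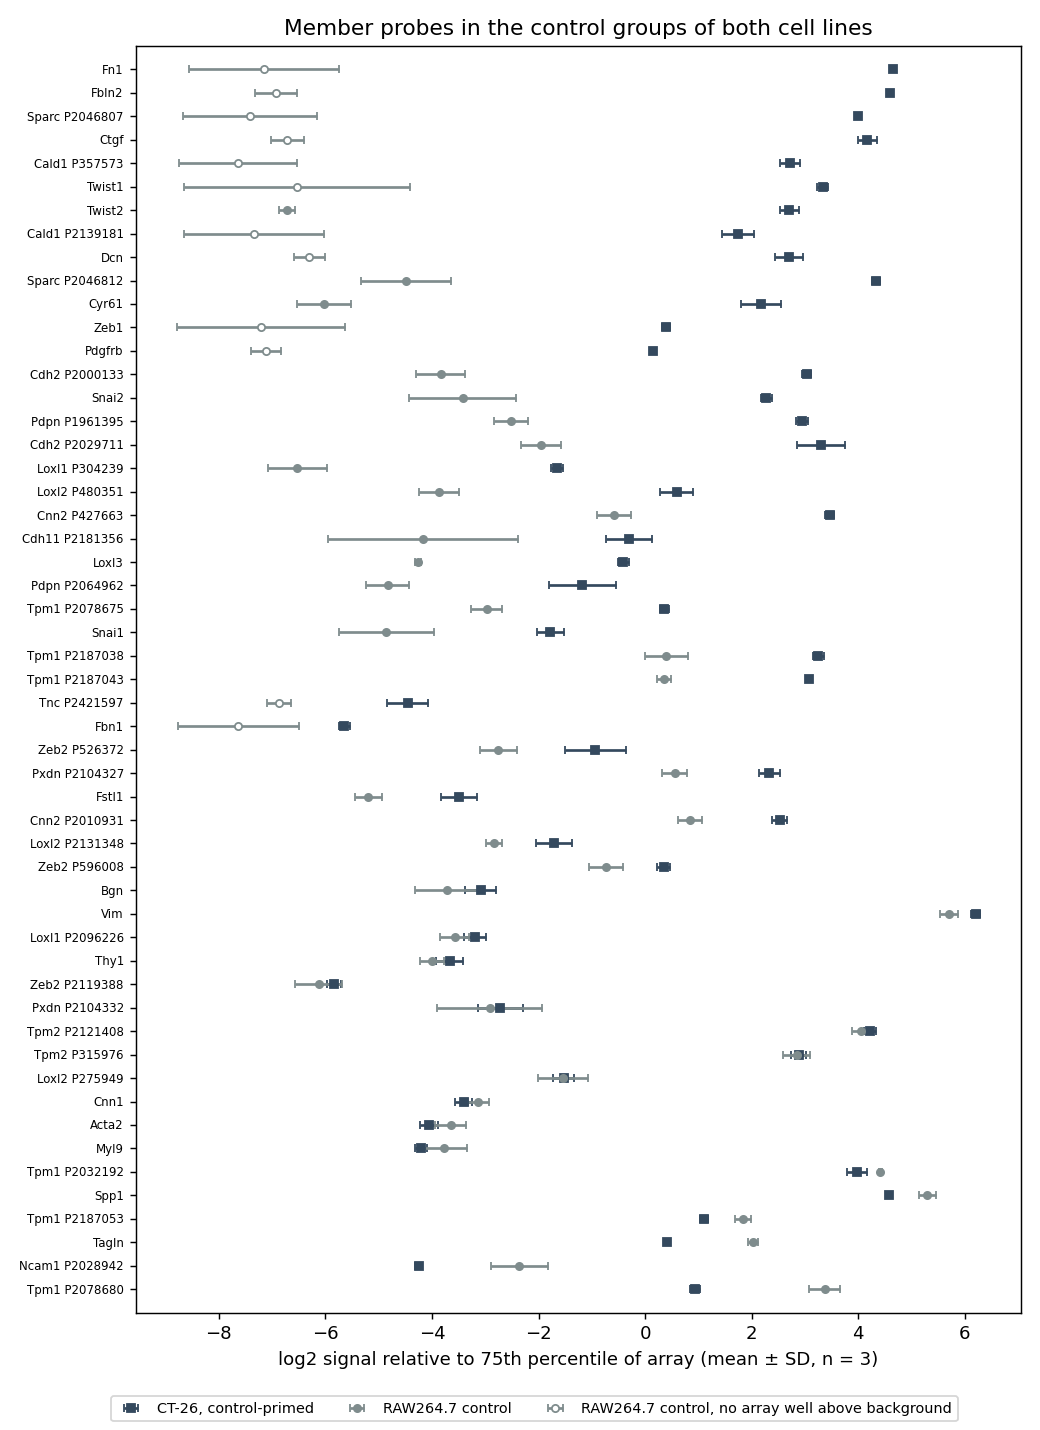
Mean ± SD (n = 3) of the log2 signal relative to the array's 75th percentile for the 53 member probes tested, in control-primed CT-26 cells (squares) and control RAW264.7 cells (circles, open where no array was well above background). The probes are in order of the fitted difference, from Fn1 at the top to Tpm1 probe P2078680 (-2.44) at the bottom. At an open circle at most a bound on the difference holds, and for Fbn1 none is given.

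Each of the 6 transcription factors of the switch had a probe called higher in CT-26, as were 28.5% of all probes tested. The probes of Snai1, Snai2, Twist1, Twist2 and Zeb1 passed the filter only through CT-26, which favoured higher values there. Twist1, a basic helix-loop-helix factor, read 3.43, 3.33 and 3.23 in control-primed CT-26 cells. It was not well above background on any control RAW264.7 array, which makes it at least 413-fold higher. Zeb1, a zinc finger repressor of E-cadherin, was at least 54.0-fold higher by the same bound. Here and below a bound sets the bright group's mean against the higher of the dim probe's own signal and, on each array, the lowest signal among spots well above background. Twist2 differed by 9.43 ± 0.19 (log2 difference ± SE) and Snai2 by 5.70 ± 0.45, with 1 and 2 of 3 control RAW264.7 arrays well above background. Snai1 and 2 of the 3 Zeb2 probes were higher by 1.09 to 3.08. The 2 higher Zeb2 probes were measured in both lines and did not overlap between them, as was the case for 73.9% of all probes tested. The remaining probe, A_55_P2119388, differed by 0.29 ± 0.25 (adjusted p = 0.334 in limma).

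Of the adhesion molecules and receptors, Cdh2, Cdh11, Pdgfrb and Pdpn were higher and Ncam1 lower in CT-26. Cdh2, which encodes N-cadherin, read 3.11, 2.96 and 3.01 in control-primed CT-26 cells, against -4.19, -3.33 and -4.00 in control RAW264.7 cells with probe A_55_P2000133, and the second probe differed by 5.25 ± 0.29. Pdgfrb, the receptor for platelet-derived growth factor BB, was at least 45.3-fold higher in CT-26, and Cdh11, osteoblast cadherin, differed by 3.87 ± 0.78. Pdpn, a mucin-type membrane glycoprotein of stromal and lymphatic cells, differed by 5.46 ± 0.21 and 3.65 ± 0.35 with its 2 probes. Ncam1, the neural cell adhesion molecule, read -4.30, -4.27 and -4.17 in CT-26 cells and -1.77, -2.50 and -2.81 in RAW264.7 cells with probe A_55_P2028942. That difference was -1.89 ± 0.27. Its other 2 probes were not well above background on any array. Thy1, a surface glycoprotein of fibroblasts and T cells, differed by 0.33 ± 0.21 (adjusted p = 0.207 in limma).

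Matrix genes gave wide gaps. Fn1, which encodes fibronectin, read 4.65, 4.69 and 4.59 in control-primed CT-26 cells and was at least 1030-fold above control RAW264.7 cells. Fbln2 (fibulin 2) was at least 988-fold and Ctgf (Ccn2, a matricellular target of YAP) at least 740-fold higher. Dcn, the proteoglycan decorin, read 2.72, 2.43 and 2.96 in control-primed CT-26 cells. No control RAW264.7 array was well above background for these 4. Sparc, a collagen-binding matricellular protein, was at least 656-fold higher with probe A_55_P2046807 and differed by 8.82 ± 0.39 with A_55_P2046812, while Cyr61 (Ccn1) differed by 8.20 ± 0.31. Tnc, tenascin C, was at least 1.87-fold higher with 1 probe. Fbn1, fibrillin 1, was well above background only in control-primed CT-26 cells, where it read -5.71, -5.70 and -5.52, too near background for a bound. With normexp background correction neither was called, at 0.60 for Tnc (adjusted p = 0.065 in limma) and 0.27 for Fbn1 (adjusted p = 0.359). Fstl1, a secreted glycoprotein of the SPARC family, differed by 1.70 ± 0.24. Bgn, the proteoglycan biglycan, gave 0.63 ± 0.32 and was not called (adjusted p = 0.116 in limma). Spp1, osteopontin, was lower in CT-26, at 4.52, 4.63 and 4.58 against 5.28, 5.14 and 5.46 in RAW264.7 cells. That difference was -0.71 ± 0.17, and -0.04 after quantile normalization (adjusted p = 0.866 in limma).

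Among the enzymes that cross-link matrix, Loxl1 probe A_51_P304239 differed by 4.87 ± 0.29, Loxl3 by 3.85 ± 0.17 and Pxdn probe A_55_P2104327 by 1.78 ± 0.20. Loxl1 and Loxl3 are lysyl oxidase-like enzymes of elastic and collagen fibres, and Pxdn encodes peroxidasin, which forms sulfilimine bonds in collagen IV. The 3 Loxl2 probes gave differences of 4.46 ± 0.26, 1.12 ± 0.22 and 0.01 ± 0.27, so the size of the gap depended on the probe. Lox itself was well above background on 1 control RAW264.7 array and 2 control-primed CT-26 arrays with probe A_55_P2032678 and was not tested between them.

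The contractile and filament genes split. Cald1, the actin-binding caldesmon, was at least 271-fold and 138-fold higher in control-primed CT-26 cells with its 2 probes, and Cnn2 (calponin 2) differed by 4.05 ± 0.21 and 1.68 ± 0.19. Vim, which encodes vimentin, read 6.11, 6.28 and 6.22 in CT-26 cells and 5.79, 5.51 and 5.80 in RAW264.7 cells, a difference of 0.50 ± 0.18 (adjusted p = 0.036 in limma). Vim was not called without control RAW264.7 replicate 1 or without any 1 of the control-primed replicates (adjusted p up to 0.123). Its call was also lost with normexp background correction, median centring, no filter on dim probes and replicate number as a block. Without both control arrays of slide 1, which leaves 1 control array, the Vim difference was 0.41. Tagln, the smooth muscle protein transgelin, was lower in CT-26, at 0.46, 0.39 and 0.35, against 2.04, 1.93 and 2.11 in RAW264.7 cells. Acta2 (smooth muscle actin), Myl9 (myosin light chain 9), Cnn1 (calponin 1) and both Tpm2 probes differed by -0.43 to 0.18 and were not called.

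Tpm1, which encodes the actin-filament coat protein alpha-tropomyosin and is spliced into many forms, had 6 probes that ran in opposite directions between the lines. Probe A_55_P2078680 (chr9:66880274-66880333, minus strand, mm9) read 0.88, 1.04 and 0.88 in control-primed CT-26 cells, against 3.08, 3.38 and 3.66 in control RAW264.7 cells, a difference of -2.44 ± 0.20 (adjusted p = 3.25e-05 in limma). Probe A_55_P2187053 also read lower in CT-26, by -0.73 ± 0.17. Probes A_55_P2078675, A_55_P2187038 and A_55_P2187043 read higher in CT-26, by 3.33 ± 0.20, 2.85 ± 0.24 and 2.72 ± 0.17. The last 2 of these overlap and share 46 bases. Probe A_55_P2032192 (chr9:66871166-66871225, minus strand, mm9) differed by -0.44 ± 0.18 without a call (adjusted p = 0.0589). The probes match different transcripts: of the RefSeq transcripts that the files list for A_55_P2078680 and A_55_P2187043, 3 each, 1 was shared, and A_55_P2187053 shared none with either. The sequences of the most opposed probe and of the uncalled one are shown to let a reader place them in the splice forms, 5′ to 3′, with the longest run they share, 10 bases, in capitals.
A_55_P2078680: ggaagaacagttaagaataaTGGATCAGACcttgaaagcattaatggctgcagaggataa
A_55_P2032192: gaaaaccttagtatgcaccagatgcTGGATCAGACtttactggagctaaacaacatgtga

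**Figure D2:**
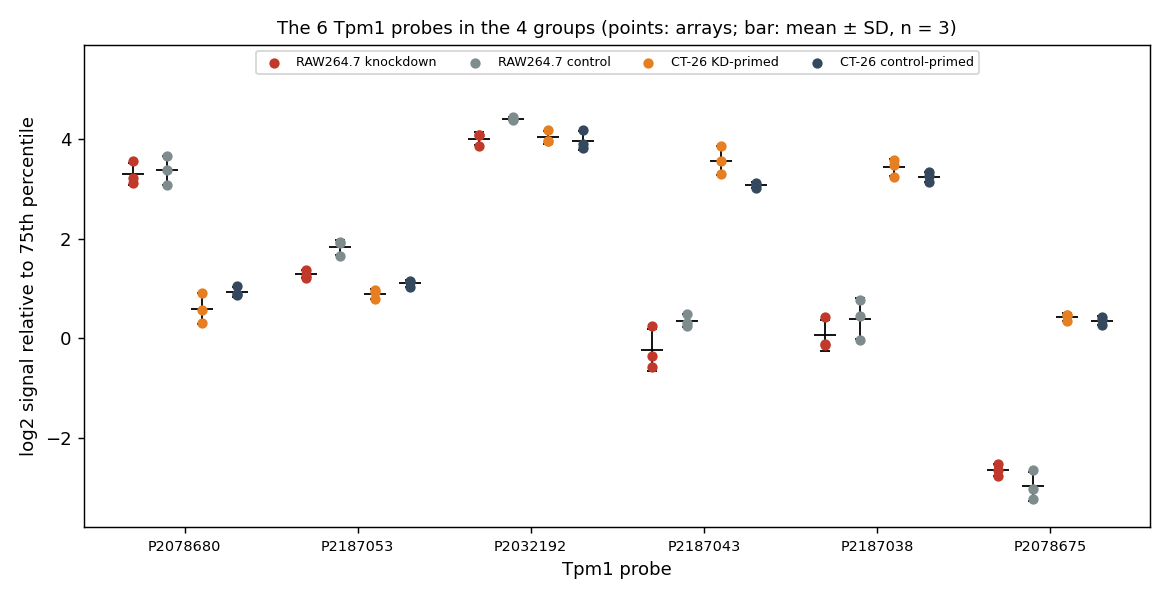
Log2 signal relative to the array's 75th percentile of the 6 Tpm1 probes in the 4 groups (points are arrays, bars mean ± SD, n = 3). The 2 probes at the left read lower in CT-26 than in RAW264.7 cells and the 3 at the right higher, and no Tpm1 probe was called between the groups of 1 line.

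In RAW264.7 cells a small set of members differed between knockdown and control cells, some of them widely. Pdpn, Acta2, Snai1, 1 Zeb2 probe and Dcn were higher in knockdown than in control cells, while Pxdn, Tpm2, Cnn2 and Loxl3 were lower. Of 41 member probes tested, 6 (5 genes) were higher and 7 (4 genes) lower, which is 31.7% called. Over all 37199 probes tested, 21 percent were called, 7.9 percent higher and 13.1 percent lower. With slide as a block, which sets the knockdown arrays against control replicate 3 alone, 4.17% of all probes were called, and 77.0% of those calls were higher. Leaving out 1 array gave shares of 5.87% to 27.7%. How much of the 21 percent came from the slides was not tested. The median change of the member probes was -0.32 on the log2 scale, against -0.29 over all probes. Groups did not overlap for 22 of the 41 (53.7%) and for 50.7% of all probes tested. Of the 41, 10 passed the filter only through knockdown cells, and among the 31 measured on every array 3 (9.68%) were higher and 7 (22.6%) lower, against 5.91% and 14.8% of the 29798 probes of all genes so measured. The median change of all probes was -0.05 after centring on the median in place of the 75th percentile, which leaves small falls near the general shift.

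Pdpn had the largest change among the members. Probe A_55_P1961395 (chr4:142857339-142857398, minus strand, mm9) read 2.83, 2.86 and 3.02 in knockdown cells, against -2.62, -2.77 and -2.15 in control cells. The 3 knockdown arrays lay far above all control arrays, and near the CT-26 arrays, which read 3.25, 3.16 and 3.32 in knockdown-primed and 2.82, 3.02 and 3.02 in control-primed cells. The change in RAW264.7 cells was 5.42 ± 0.21 (42.7-fold, adjusted p = 5.61e-06 in limma). The second probe read -0.72, -0.63 and -0.43 in knockdown cells, against -4.39, -4.89 and -5.21 in control cells, of which 2 were well above background. It gave 4.24 ± 0.24 (adjusted p = 2.19e-05). With slide as a block the changes were 5.05 and 4.61, the same as on the shared slide alone. The second probe is shown because its 60 bases span 818 bases of the genome (chr4:142858329-142859146, minus strand, mm9) and so cross a splice junction.
A_55_P2064962: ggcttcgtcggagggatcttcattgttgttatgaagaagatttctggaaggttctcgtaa

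Pxdn was lower in knockdown cells. Probe A_55_P2104327 (chr12:30702457-30702516, plus strand, mm9) read -4.00, -4.51 and -4.38 in knockdown cells, against 0.51, 0.81 and 0.34 in control cells. All knockdown arrays lay more than 4 log2 units below every control array, and the change was -4.85 ± 0.22 (adjusted p = 8.37e-06 in limma). Probe A_55_P2104332, whose start lies 1822 bases upstream, read -5.17, -5.55 and -5.51 in knockdown cells, against -2.48, -4.04 and -2.22 in control cells, with control replicate 2 the lowest control. It changed by -2.49 ± 0.43 (adjusted p = 0.00696). With slide as a block the 2 probes gave -4.64 and -3.19. The remaining probe was not well above background on any of the 12 arrays. Probe A_55_P2104327 and Pdpn probe A_55_P1961395 both hold the hexamer AATAAA, the polyadenylation signal, searched on the probe strand only. It occurs in 8 of the 63 member probes (12.7%) and in 10.1% of all probes.

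Among the contractile genes, Acta2 was higher and Tpm2 lower in knockdown cells. Acta2, smooth muscle actin, read -1.60, -1.45 and -0.93 in knockdown cells, against -3.85, -3.31 and -3.78 in control cells (chr19:34316060-34316119, minus strand, mm9). The groups were well separated, and the change was 2.32 ± 0.24 (adjusted p = 0.000571 in limma), or 2.45 with slide as a block. Tpm2, beta-tropomyosin, read 0.44, 0.27 and 0.45 in knockdown cells, against 2.58, 2.86 and 3.09 in control cells with probe A_52_P315976, a change of -2.46 ± 0.20 (adjusted p = 0.000134). Its probe A_55_P2121408, 986 bases away, read 3.12, 3.56 and 3.47 in knockdown cells, against 3.88, 4.19 and 4.06 in control cells, and changed by -0.66 ± 0.20 (adjusted p = 0.0487). With slide as a block these were -2.70 (adjusted p = 0.000939) and -0.68 (adjusted p = 0.286). The fall was wider at A_52_P315976, and both probes are shown, 5′ to 3′, since Tpm2 is also spliced into several forms.
A_52_P315976 (chr4:43531276-43531335, minus strand, mm9): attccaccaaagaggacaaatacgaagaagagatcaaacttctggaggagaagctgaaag
A_55_P2121408 (chr4:43532262-43532321, minus strand, mm9): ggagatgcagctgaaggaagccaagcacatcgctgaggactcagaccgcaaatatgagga

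Calponin 2 was lower with both Cnn2 probes, at -0.998 ± 0.23 (adjusted p = 0.0204 in limma) and -0.86 ± 0.21 (adjusted p = 0.0281). The probe with the larger change read 0.22, -0.33 and -0.35 in knockdown cells, against 0.98, 0.97 and 0.59 in control cells. With slide as a block they gave -0.74 (adjusted p = 0.265) and -1.22 (adjusted p = 0.0375). Neither was called without control replicate 1 or without knockdown replicate 2 or 3, and the probe with the smaller change also not without knockdown replicate 1. The call of the second Tpm2 probe was lost without any 1 of the 6 arrays. Cnn1 (-0.60 ± 0.19, adjusted p = 0.0512), the 6 Tpm1 probes (-0.59 to 0.33), Tagln (-0.27 ± 0.18), Myl9 (-0.23 ± 0.24) and Vim (0.09 ± 0.19) were not called.

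Of the transcription factors, Snai1 and Zeb2 had calls, both lost with slide as a block. Snai1, the founding Snail repressor, read -3.02, -3.23 and -3.02 in knockdown cells, against -4.62, -5.84 and -4.11 in control cells, of which 2 were well above background. Groups did not overlap, and the change was 1.77 ± 0.39 (adjusted p = 0.0187 in limma). On the shared slide, where control replicate 3 was the only control, it was 1.02 (adjusted p = 0.0604, or 0.274 with slide as a block). It was not called without any 1 of the knockdown replicates. Zeb2 probe A_52_P596008 read 0.06, 0.39 and 0.20 in knockdown cells, against -0.61, -1.10 and -0.51 in control cells, a change of 0.96 ± 0.22 (adjusted p = 0.0208), or 0.72 with slide as a block (adjusted p = 0.264), and was not called without knockdown replicate 2 or 3. The other Zeb2 probes gave -0.21 ± 0.23 and 0.60 ± 0.26 and Snai2 -0.17 ± 0.43, none of them called. Twist1, Twist2 and Zeb1 were not well above background on any knockdown array and were not tested.

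Of the remaining matrix genes, only Dcn and Loxl3 were called. Dcn was well above background on all 3 knockdown arrays, at -5.42, -5.52 and -5.32, and on no control array, at -6.11, -6.15 and -6.64. Its adjusted p was 0.023 in limma, but the bound on its fold lies under 1, so no fold is given. The Dcn call was lost without any 1 of the knockdown replicates, and with normexp background correction, where the change was 0.13. On control replicates 1 and 2 the lowest signal well above background was -4.80 and -4.60, which is above the knockdown readings of Dcn. Loxl3 was lower by -0.61 ± 0.18 (adjusted p = 0.0471), but not called without any 1 of the 6 arrays or with slide as a block (-0.63, adjusted p = 0.284). Loxl2 (3 probes, -0.28 to 0.04), Loxl1 probe A_55_P2096226 (-0.49 ± 0.21), Bgn (-0.80 ± 0.33), Fstl1 (-0.48 ± 0.20), Cyr61 (0.70 ± 0.32) and Spp1 (0.21 ± 0.19) were not called. Ncam1 gave -0.90 ± 0.28 (adjusted p = 0.0507). Uncalled probes numbered 28 and ranged from -0.90 to 0.75. The summed signal of the fibroblast markers was 0.13 to 0.27 times the 75th percentile in knockdown cells and 0.13 to 0.22 times in control cells, with Lum and Pdgfra not well above background on any of the 6 arrays. Its part in the Dcn, Acta2 and Pdpn changes was not tested.

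**Figure D3:**
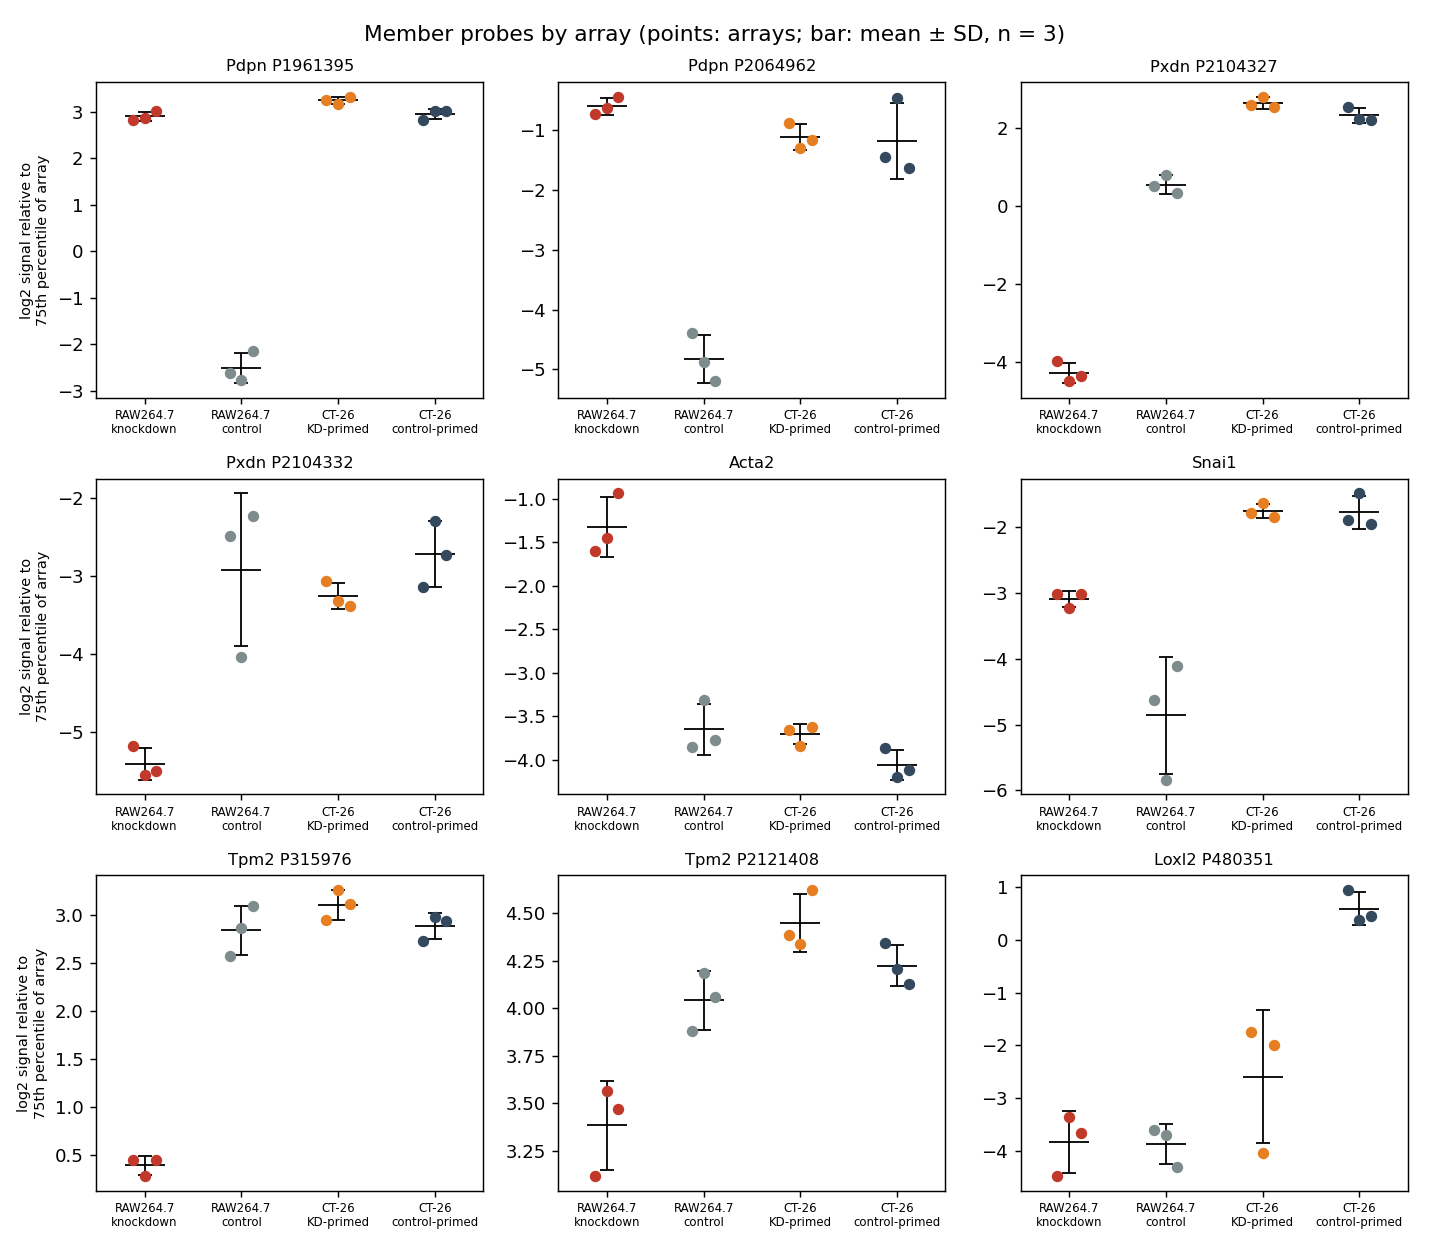
Log2 signal relative to the array's 75th percentile of 9 member probes on each array (points), with the mean ± SD (bars, n = 3), in knockdown and control RAW264.7 cells and in knockdown-primed and control-primed CT-26 cells. The vertical scale differs between panels. Pdpn probe P1961395 lies near its CT-26 level in knockdown RAW264.7 cells, and the single control below the others stands out for Snai1 and Pxdn probe P2104332.

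Few members passed the threshold in CT-26 cells, where the question is what Abhd5 in the priming cells does to the primed ones. Loxl2 and Pdgfrb were lower in knockdown-primed than in control-primed cells, with 1 probe each. Of 53 member probes tested between knockdown-primed and control-primed cells, 0 were higher and 2 lower, 3.77% called. Over all 37501 probes tested, 6.68% were called, 2.79% higher and 3.88% lower. The median change was 0.09 over the member probes and 0.08 over all probes. At an unadjusted p below 0.05 in limma, 9 member probes (17%) were higher and 7 (13.2%) lower, against 16.2% and 13.2% of all probes tested. The groups did not overlap for 23 of the 53 (43.4%) and for 36% of all probes. The 51 uncalled probes ranged from -1.12 to 0.80, and 41 of them lay within 0.5 log2 units of 0.

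Loxl2 encodes a lysyl oxidase-like enzyme that is secreted into the matrix. Probe A_52_P480351 (chr14:70095254-70095313, plus strand, mm9) read -1.75, -4.04 and -1.99 in knockdown-primed cells, against 0.95, 0.38 and 0.45 in control-primed cells. All knockdown-primed arrays were lower, replicate 2 by far, and the change was -3.18 ± 0.52 (adjusted p = 0.0167 in limma). The call was lost without control-primed replicate 2 or replicate 3, with adjusted p up to 0.0936. Probe A_55_P2131348 read -1.97, -3.38 and -2.61 in knockdown-primed cells, against -1.90, -1.33 and -1.91 in control-primed cells, an estimate of -0.94 ± 0.33 (adjusted p = 0.109). Probe A_51_P275949, between these 2, read -1.25, -0.28 and -0.67 in knockdown-primed cells, against -1.59, -1.68 and -1.31 in control-primed cells, an estimate of opposite sign at 0.80 ± 0.25 (adjusted p = 0.0814). Replicate 2 of the knockdown-primed cells was the lowest of its group with the 2 probes of negative estimate and the highest with the middle one. The Loxl2 probes thus did not share 1 direction, and the sequences of the 2 uncalled ones are given, 5′ to 3′, as they start 2124 bases apart while the called probe starts 5237 bases from the first.
A_55_P2131348 (chr14:70090017-70090076, plus strand, mm9): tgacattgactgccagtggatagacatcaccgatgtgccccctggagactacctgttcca
A_51_P275949 (chr14:70092141-70092200, plus strand, mm9): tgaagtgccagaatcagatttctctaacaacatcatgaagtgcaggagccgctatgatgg

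Pdgfrb read -0.55, -0.36 and -0.62 in knockdown-primed cells, against 0.14, 0.13 and 0.16 in control-primed cells. The groups did not overlap, and the change was -0.65 ± 0.15 (adjusted p = 0.0417 in limma). Without any 1 of the 6 arrays it was not called, with adjusted p between 0.056 and 0.173. The best known members of the mesenchymal switch were not called: Vim gave 0.15 ± 0.19, Fn1 0.16 ± 0.15, Snai1 0.02 ± 0.18, Zeb1 0.07 ± 0.17 and Twist1 0.33 ± 0.17. Cdh2 gave 0.38 ± 0.20 and -0.40 ± 0.23 with its 2 probes. Nearest the threshold among the uncalled were Ncam1 (0.57 ± 0.15, adjusted p = 0.0534), Dcn (0.62 ± 0.18, 0.0715), Zeb2 probe A_55_P2119388 (-1.12 ± 0.34, 0.0799), Loxl2 probe A_51_P275949 (0.80 ± 0.25, 0.0814), Loxl1 probe A_51_P304239 (0.53 ± 0.17, 0.0821) and Fstl1 (0.62 ± 0.20, 0.0875). The fibroblast marker sum, which holds Dcn, was 65.7 to 81.3 times the 75th percentile in knockdown-primed and 60.9 to 63.6 times in control-primed cells. Its part in these changes was not tested.

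The knockdown change in RAW264.7 cells was set against the priming change in CT-26 cells by an interaction contrast over all 12 arrays. Of 54 member probes tested, 7 had a higher and 10 a lower change in RAW264.7 cells, 31.5% called, against 27.4 percent of all 40756 probes (7.35 percent higher, 20 percent lower). The median contrast was -0.40 over the member probes and -0.35 over all probes. Pdpn differed most on the higher side, with changes of 5.42 in RAW264.7 and 0.29 in CT-26 cells at probe A_55_P1961395 (contrast 5.12 ± 0.25, adjusted p = 1.05e-06 in limma). Pxdn probe A_55_P2104327 differed most on the lower side, with -4.85 in RAW264.7 and 0.32 in CT-26 cells (contrast -5.17 ± 0.27, adjusted p = 1.11e-06). Acta2 (1.97 ± 0.30) and Tpm2 probe A_52_P315976 (-2.68 ± 0.24) differed in the same way, moving in RAW264.7 and not past the threshold in CT-26 cells. For Loxl2 probe A_52_P480351 the contrast of 3.22 ± 0.72 (adjusted p = 0.0102) came with 0.04 in RAW264.7 and -3.18 in CT-26 cells. With slide as a block, 9 of the 17 calls were kept, among them those of Pdpn, Pxdn, Acta2 and Loxl2.

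Other contrasts came with fitted changes of opposite sign in the 2 lines. Ncam1 probe A_55_P2028942 read -3.12, -3.17 and -3.48 in knockdown against -1.77, -2.50 and -2.81 in control RAW264.7 cells, and -3.64, -3.78 and -3.60 in knockdown-primed against -4.30, -4.27 and -4.17 in control-primed CT-26 cells. Neither pair of groups overlapped, and the contrast was -1.47 ± 0.33 (adjusted p = 0.00996 in limma). Fstl1 read -5.52, -5.79 and -5.70 in knockdown against -5.30, -4.91 and -5.37 in control RAW264.7 cells, where 1 control array was well above background, and -2.76, -2.84 and -3.0 in knockdown-primed against -3.87, -3.37 and -3.23 in control-primed CT-26 cells (contrast -1.10 ± 0.28). Tpm1 probe A_55_P2187043 read 0.24, -0.36 and -0.59 in knockdown against 0.32, 0.50 and 0.25 in control RAW264.7 cells, and 3.29, 3.56 and 3.86 in knockdown-primed against 3.13, 3.09 and 3.02 in control-primed CT-26 cells. Its contrast was -1.08 ± 0.31 (adjusted p = 0.0259), and the other overlapping probe, A_55_P2187038, gave -0.52 ± 0.32 (adjusted p = 0.228). Cnn2 probe A_51_P427663 read -1.47, -1.53 and -1.32 in knockdown against -0.70, -0.83 and -0.22 in control RAW264.7 cells, without overlap, and 3.39, 3.76 and 3.85 in knockdown-primed against 3.40, 3.56 and 3.44 in control-primed CT-26 cells, with overlap. The calls of Ncam1, Fstl1 and the Tpm1 probe were lost with slide as a block.

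On control RAW264.7 replicates 1 and 2, Fstl1 read below the lowest signal well above background, so its contrast rests in part on dim signals. For 2 further probes the contrast rests on dim signals as well. Loxl1 probe A_51_P304239 read -8.60, -8.13 and -7.04 in knockdown against -6.96, -6.72 and -5.89 in control RAW264.7 cells, of which only 1 control array was well above background. In CT-26 cells it read -1.14, -1.30 and -0.93 in knockdown-primed against -1.62, -1.56 and -1.79 in control-primed cells, and the contrast was -1.93 ± 0.51 (adjusted p = 0.0193 in limma). Zeb2 probe A_55_P2119388 read -5.79, -5.51 and -5.28 in knockdown against -6.21, -6.51 and -5.64 in control RAW264.7 cells. It read -6.08, -7.64 and -7.14 in knockdown-primed against -5.93, -5.68 and -5.90 in control-primed CT-26 cells, with no knockdown-primed array well above background. Its contrast of 1.71 ± 0.49 (adjusted p = 0.0255) turned to -0.42 under normexp background correction. Single arrays ended further calls here: the Zeb2 ones, Cnn1, Snai1, the second probes of Tpm2 and Pxdn, the Tpm1 probe and Loxl1 each lost theirs without at least 1 array.

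**Figure D4:**
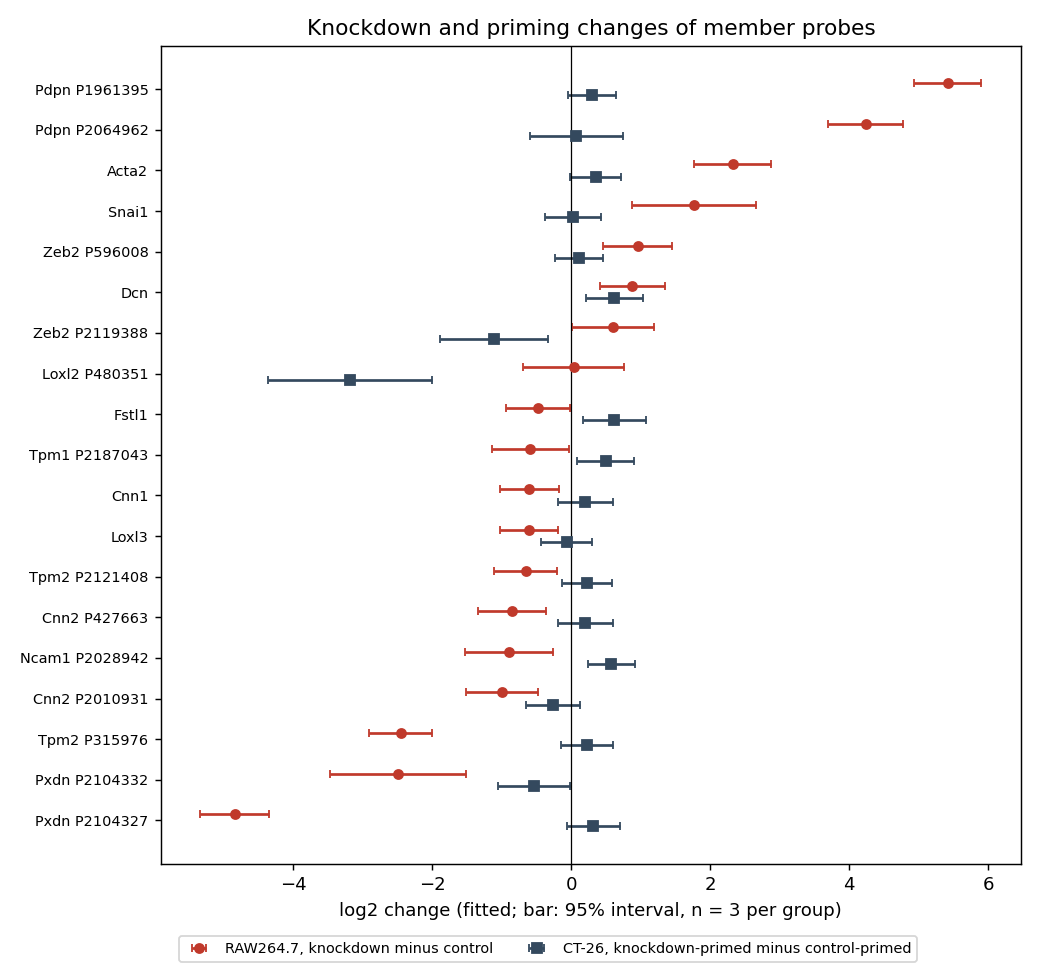
Fitted log2 change with its 95% interval (n = 3 per group) of each member probe called in RAW264.7 cells, in CT-26 cells or between them and tested in both lines, as knockdown minus control in RAW264.7 (circles) and knockdown-primed minus control-primed in CT-26 (squares). Pdpn and Pxdn lie far from 0 in RAW264.7 cells alone, and Loxl2 probe P480351 in CT-26 cells alone. The other Loxl2 probes were not called and are not shown.

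Of related genes, Ecm1, Amotl1, Filip1l and Mkl2 were higher and Smad3 and Nid2 lower in knockdown RAW264.7 cells, as read from 3 lists. Over all probes tested, 7.9% were higher and 13.1% lower in knockdown RAW264.7 cells, and 2.79% and 3.88% in knockdown-primed CT-26 cells. Of the TGF-beta signalling list, 3 of 22 probes tested were higher and 5 lower in knockdown RAW264.7 cells. In knockdown-primed CT-26 cells 0 of 23 were higher and 1 lower. Ltbp1, a latent TGF-beta binding protein, changed by 4.52 ± 0.34 with 1 probe (adjusted p = 9.11e-05 in limma), of whose control arrays 1 was well above background, and by -1.26 ± 0.32 with the other. Smad3, a signal transducer of the TGF-beta receptor, was lower in RAW264.7 cells with 2 probes, at -1.47 ± 0.20 and -1.27 ± 0.19. Tgfbi, a TGF-beta-induced matrix protein, changed by -1.40 ± 0.22 in CT-26 cells. A further list held the serum response factor and YAP themselves, related regulators such as Mkl2, and targets. Of it, 3 of 25 probes were higher and 1 lower in RAW264.7 cells. The higher ones were of Amotl1 (1.93 ± 0.19), Filip1l (1.74 ± 0.25) and Mkl2 (1.23 ± 0.22). In CT-26 cells 1 of 27 was higher, Amotl2 (0.79 ± 0.17). Of further matrix glycoproteins and basement membrane genes, 5 of 28 probes were higher and 4 lower in RAW264.7 cells. Ecm1, extracellular matrix protein 1, rose by 2.90 ± 0.22 and 2.51 ± 0.20 with its 2 probes, and Nid2, a basement membrane nidogen, changed by -2.27 ± 0.18. In CT-26 cells 1 of 37 was higher, Thbs1 (thrombospondin 1, 1.87 ± 0.17), and 1 lower, Lama3 (laminin alpha 3, -1.14 ± 0.14).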

How the data were processed

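TRIzol was used to prepare total RNA, which was amplified linearly and labelled with the dye Cy3, per the labels' protocols. Agilent Feature Extraction 10.7.3.1 made the scanner files, per the submitters' processing notes, and the probe coordinates are of mm9, per the file headers. In the deposited files each spot has its intensity, a linear quantity, as the software's background-corrected processed signal, the mean signal and the background signal. They also hold flags for spots that are outliers, saturated or well above background. A deposited table of processed values, used only as an alternative, holds log2 values for the RAW264.7 columns and linear intensity for the CT-26 columns, as found by setting it against the scanner files, since its scale, centring and direction are not stated in the labels. Only 1 of its 6 CT-26 columns belonged to the replicate it is labelled with, while the other 5 held the values of a different replicate within their group. Column medians were -4.02, -3.94 and -3.93 for knockdown and -3.81, -3.53 and -3.90 for control RAW264.7 cells, and 226.1, 131.7 and 174.0 for knockdown-primed and 272.6, 276.0 and 274.4 for control-primed CT-26 cells.

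On each array the 3671 control spots and the spots flagged as outliers (172 to 272) were removed; none was saturated. The array's 75th percentile was subtracted on the log2 scale and spots of 1 probe were averaged. Two-sided tests used lmFit and eBayes of limma 3.58.1 under R 4.3.3, on the 6 arrays of the groups compared, or on all 12 for the difference between lines, and the procedure was tested on simulated data. SE is that of the fit, with n = 3 per group, and with so few arrays their number limits the precision. Members, lists, tests and alternatives were chosen with earlier results of these data known. Values on every array are given for member probes called with a log2 change of at least 1 in a knockdown comparison or in the difference between lines, and for further members where they help a comparison. Of each related list, the 3 probes with the smallest p among those called are named. The second probe of Ltbp1, and the members given on every array beyond that rule, were chosen after their values were seen. Deviations of same-numbered replicates from their group means correlated at -0.17 to 0.12 in the knockdown comparisons, and samples were treated as unpaired. With n = 3 per group, and control RAW264.7 replicates 1 and 2 on a slide of their own, these correlations cannot exclude pairing. Alternatives were another background correction, scaling, filter or model, the deposited table, slide or replicate number as a block, and leaving out each array. Leaving out both control RAW264.7 arrays of slide 1 was added after seeing the data.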

Additional observations from a re-analysis of the deposited data

Results flagged for a closer look

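For 17 member probes the knockdown change in RAW264.7 cells differed from the priming change in CT-26 cells by the interaction contrast in limma. They were 31.5% of the member probes tested, against 27.4% called among all probes tested. Contrasts are given here as RAW264.7 minus CT-26 on the log2 scale. The contrast was above 0 for Pdpn at 5.12 and 4.16 with its 2 probes, Loxl2 probe A_52_P480351 at 3.22, Acta2 at 1.97, Snai1 at 1.74, and Zeb2 at 1.71 and 0.84. It was below 0 for Pxdn at -5.17 and -1.96, Tpm2 at -2.68 and -0.88, Loxl1 probe A_51_P304239 at -1.93, Ncam1 at -1.47, Fstl1 at -1.10, Tpm1 probe A_55_P2187043 at -1.08, Cnn2 probe A_51_P427663 at -1.06 and Cnn1 at -0.80. For Ncam1 the change was -0.90 in RAW264.7 and 0.57 in CT-26 cells, for Fstl1 -0.48 and 0.62, and for Tpm1 probe A_55_P2187043 -0.59 and 0.49, none of them called within its line. Loxl1 probe A_51_P304239 was well above background on 0 of 3 knockdown and 1 of 3 control RAW264.7 arrays, and Zeb2 probe A_55_P2119388 on 0 of 3 knockdown-primed arrays, so their contrasts rest on dim signals. Fstl1 was well above background on 1 of 3 control RAW264.7 arrays, and its contrast rests in part on dim signals.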

How the results depend on the processing

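The precision is limited by 3 arrays per group and, for dim members, by a lowest signal well above background that was -4.80 and -4.60 on control RAW264.7 replicates 1 and 2 and -6.77 to -6.32 on the other RAW264.7 arrays. In RAW264.7 cells, 6 of the 13 calls were kept under every alternative that tested them (both Pdpn and both Pxdn probes, Acta2 and Tpm2 probe A_52_P315976). Of 6 higher and 7 lower, the counts became 3 higher with no filter and with all groups above background, and lower counts were 12 with normexp, 3 with median centring, 4 with no filter, 11 with all 12 arrays in 1 fit, 4 with slide as a block and 4 on the shared slide. In CT-26 cells, from 0 higher and 2 lower, there were 3 higher with normexp, 1 with median centring and 1 with all groups above background, and 0 lower with no filter, 1 with all 12 arrays and 1 with the replicate block. Neither CT-26 call was kept throughout. The share of all probes called in CT-26 cells moved too, from 6.68% to 7.38% with normexp, 7.47% with median centring and 9% with all groups above background. It was 0.0467% with no filter, 4.15% with all 12 arrays, 3.86% with the replicate block and 0.0944% to 9.41% without 1 array. In RAW264.7 cells the share of all probes called fell from 21% to 4.17% with slide as a block, and was 5.87% to 27.7% without 1 array. For the difference between lines, from 7 and 10, there were 4 higher with all groups above background and 4 with slide as a block, and 20 lower with normexp, 6 with median centring, 6 with quantile normalization and 5 with slide as a block. Between control groups, from 36 and 5, there were 15 higher with all groups above background and 8 lower with median centring, and 37 of the 41 calls were kept throughout. Leaving out 1 array gave 3 to 8 higher and 3 to 7 lower in RAW264.7, 0 to 2 and 0 to 3 in CT-26, 4 to 7 and 5 to 18 in the difference, and 35 to 38 and 5 to 6 between control groups. Only the contrast of Zeb2 probe A_55_P2119388 turned, to -0.42 with normexp. With replicate number as a block, RAW264.7 cells had 6 higher and 6 lower, the difference 6 and 9, and the control groups 35 and 5. Higher probes were 46.2% of member calls in RAW264.7 (37.7% of all calls), and 66.7% (66.5%) with median centring, 54.5% (55.8%) with quantile normalization, 29.4% (23.1%) with normexp and 50% (77.0%) with slide as a block. For the difference they were 41.2% (26.9%), and 53.8% (40.4%), 62.5% (45.3%), 23.1% (13.3%) and 44.4% (50.3%) in that order. The causes were not tested.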

Other observations

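Some dim members had signal on single arrays. Fn1 read -3.22 in knockdown RAW264.7 replicate 1, well above background, and -7.74 and -8.33 in replicates 2 and 3, while control cells read -6.29, -6.37 and -8.78. The same replicate alone was well above background among RAW264.7 arrays for Ctgf (-5.33), Fbln2 (-4.81) and Sparc probe A_55_P2046807 (-5.99). The collagen gene Col1a2, a fibroblast marker and no member, read -2.63 there, against -4.55 and -4.73 in the other knockdown replicates. Control cells read -4.53, -3.97 and -4.38 for Col1a2, and CT-26 cells 5.31 to 5.58 when knockdown-primed and 5.25 to 5.36 when control-primed. Postn, periostin, was well above background on 1 array, control-primed CT-26 replicate 3 (-4.05), and Eln, elastin, on knockdown replicate 3 (-3.41) and control RAW264.7 replicate 3 (-6.50).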
